A study of Homo sapiens with 2 samples.

Results

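Chromatin accessibility was examined at 10 genes of the 20033 that GENCODE release 44 annotates as protein-coding, those of the main human milk proteins and of the prolactin signalling pathway. The genes were chosen by name, for what they encode. CSN1S1, CSN2 and CSN3 encode the alpha-S1, beta and kappa caseins, LALBA encodes alpha-lactalbumin, and BTN1A1 encodes butyrophilin, a protein of the milk fat globule membrane. PRLR is the prolactin receptor, JAK2 the kinase bound to it, and STAT5A and STAT5B the transcription factors that the kinase phosphorylates. CISH encodes a SOCS family protein that damps cytokine signalling and is itself a target of STAT5. For each gene, every peak that overlapped the gene body or the 50 kb on either side of it was taken, and this stretch is called the window of the gene. A peak within 1 kb of any annotated transcription start site (TSS) of a gene is called a TSS peak of that gene, and the 5 milk protein genes were set beside PRLR, JAK2, STAT5A and STAT5B.

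The study profiled CAMA-1, an established breast cancer cell line that the labels give as epithelial and of mammary gland origin, by ATAC-seq, an assay of open chromatin in which a Tn5 transposase cuts accessible DNA and attaches sequencing adapters to it. There were 2 biological replicates of 50000 cells each in a single condition, untreated cells grown in DMEM with fetal bovine serum, so that no groups of samples were compared. The line had been passaged for a long time, and the labels name no lactogenic hormone in the medium. Peaks had been called in each replicate separately, 245736 in replicate 1 and 259745 in replicate 2, and a region called in both is a stretch where peaks of both replicates overlapped, of which there were 215195.

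In the mammary gland, prolactin binds its receptor and activates JAK2, which phosphorylates STAT5A and STAT5B. The STAT5 proteins form dimers, enter the nucleus and bind palindromic elements with the letters TTCNNNGAA near their target genes. During pregnancy and lactation this pathway acts together with glucocorticoid signalling and other transcription factors to switch on the casein genes and LALBA in luminal epithelial cells.

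The strength of each peak is given as its fold enrichment, the authors' ratio of a peak to the caller's own background, and as its height, the stack of reads at its top, which was recovered from that ratio. The median peak had a fold enrichment of 8.28 in replicate 1 and 7.96 in replicate 2, and a height of 35 in both. Depth is not given by the peak lists, and the 95% Poisson intervals of heights and Wilson intervals of shares cover counting error only. Across the regions called in both replicates, the log2 ratio of replicate 2 to replicate 1 had a median of 0.03 and an SD of 0.29.

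At the TSSs, the milk protein genes were mostly closed and the signalling genes open. A TSS peak was called in both replicates for 1 of the 5 milk protein genes, BTN1A1, and for all 4 of PRLR, JAK2, STAT5A and STAT5B, against 79.2% of all protein-coding genes (15863 of 20033, 95% interval 78.6 to 79.7%). CISH also had a TSS peak in both. The counts of 1 of 5 and 4 of 4 were the same when a single TSS was taken for each gene, for which the share of all genes was 73.4%. No test was made of these counts, since the genes were named with earlier results of these data known.

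The promoters of both sets differed in base composition. The ratio of observed to expected CpG within 500 bp of the main TSS was 0.189 for CSN1S1, 0.146 for CSN2, 0.267 for CSN3, 0.166 for LALBA and 0.268 for BTN1A1. It was 0.667 for PRLR, 0.813 for JAK2, 0.844 for STAT5A, 0.95 for STAT5B and 0.766 for CISH, so that the 5 milk protein genes lay below 0.6 and the other 5 genes above it. Of all genes below 0.6, 53.9% had a TSS peak in both replicates (3639 of 6755), and of those at or above it 92.1% (12224 of 13278). The part of promoter type in the contrast was not tested.

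**Figure D1:**
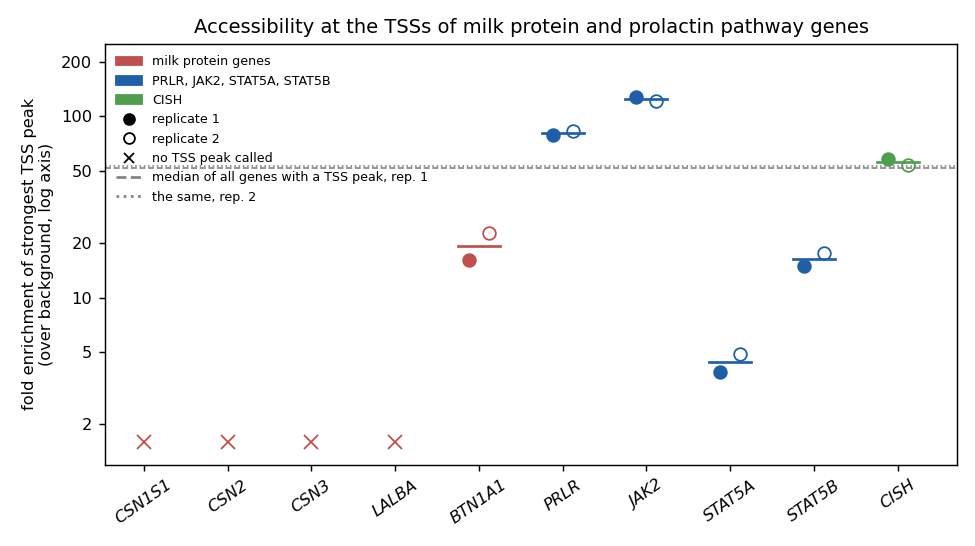
Fold enrichment over background (log axis) of the strongest TSS peak of each gene in replicate 1 (filled) and replicate 2 (open), with a bar at their mean and dashed and dotted lines at the median of all genes with a TSS peak (51.8 and 53.3). Crosses mark the 4 milk protein genes without a TSS peak, BTN1A1 reached 16.1 and 22.6, and the signalling genes ranged from 3.91 for STAT5A to 128 for JAK2.

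The letters bound by STAT5 were found just upstream of 3 of the 10 genes, CISH, whose promoter was open, and CSN1S1 and CSN2, whose promoters were closed. Their sequences are shown for that reason, and that of BTN1A1 because it is the open promoter among the milk protein genes, without a match. They were read from hg38 at the 250 bases before the RefSeq start of each gene, on the strand of the gene and from 5′ to 3′, with each match to TTCNNNGAA in capitals. The motif reads the same on both strands. In CISH the upstream bases farther than 133 from the TSS are an untranslated exon of a MAPKAPK3 transcript on the other strand, so the near stretch (chr3:50611775-50611907, reverse strand) and a 30-base piece around the far pair of matches (chr3:50611995-50612024, reverse strand) are given separately. CSN1S1 is shown from chr4:69930818-69931067 (forward strand), CSN2 from chr4:69965729-69965978 (reverse strand) and BTN1A1 from chr6:26500053-26500302 (forward strand).
CISH near the TSS: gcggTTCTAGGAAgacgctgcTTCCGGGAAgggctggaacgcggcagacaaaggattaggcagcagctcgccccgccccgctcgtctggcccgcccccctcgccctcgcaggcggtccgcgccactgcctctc
CISH far pair: cgccccgttTTCCTGGAAagTTCTTGGAAa
CSN1S1: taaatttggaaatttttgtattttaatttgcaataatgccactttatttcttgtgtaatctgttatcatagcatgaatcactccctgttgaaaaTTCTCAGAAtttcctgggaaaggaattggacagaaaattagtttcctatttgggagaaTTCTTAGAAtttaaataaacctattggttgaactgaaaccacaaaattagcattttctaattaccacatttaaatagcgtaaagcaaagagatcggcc
CSN2: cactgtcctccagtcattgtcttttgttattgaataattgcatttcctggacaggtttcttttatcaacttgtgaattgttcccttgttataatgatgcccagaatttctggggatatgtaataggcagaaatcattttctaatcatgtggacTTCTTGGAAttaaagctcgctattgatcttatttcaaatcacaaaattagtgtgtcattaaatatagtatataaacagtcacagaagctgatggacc
BTN1A1: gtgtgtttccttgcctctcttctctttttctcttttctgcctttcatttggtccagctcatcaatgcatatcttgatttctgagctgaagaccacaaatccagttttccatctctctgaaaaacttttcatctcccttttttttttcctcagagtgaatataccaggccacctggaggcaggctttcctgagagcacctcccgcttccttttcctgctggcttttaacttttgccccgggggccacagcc

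CISH held 4 matches, which began 241, 230, 129 and 112 bases upstream of its TSS, and the whole of its 250 upstream bases lay under a peak in both replicates. CSN1S1 held 2 matches, at 156 and 98 bases, and CSN2 held 1, at 97 bases, and no base of either stretch lay under a peak in either replicate. BTN1A1, the milk protein gene with a TSS peak, held no match, with 166 of its 250 upstream bases under the peak of replicate 1 and 170 under that of replicate 2. The RefSeq entries of the other 6 genes held none. Among 21613 promoters of 15345 protein-coding genes in the same table, 5.91% held at least 1 match and 4 promoters (0.0185%), CISH among them, held 4 or more. These shares count promoters, of which the 10 genes had 17. Only 1 promoter each of CISH, CSN1S1 and CSN2 held a match, and the difference was not tested. A match describes the letters alone, and no binding was measured here.

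The casein genes lay in a stretch of chromosome 4 with few peaks. CSN1S1 (ENSG00000126545.14, chr4:69931068-69946574, forward strand) and CSN2 (ENSG00000135222.7, chr4:69955256-69965728, reverse strand) sit end to end, and their windows overlap. The window of CSN1S1 held 2 peaks in each replicate, and that of CSN2 held 1 in each, the same peak that CSN1S1 also counts. Neither gene had a peak in its body or at its TSS, and both lay inside 1 stretch of 102 kb without a peak of either replicate, chr4:69881487-69983973. Only 4.21% of protein-coding genes had a main TSS in a stretch as long or longer.

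The 2 regions that bound this stretch differed in strength. The region on the CSN1S1 side, chr4:69881220-69881486, was 44798 bp from the nearest TSS of CSN1S1 and had a fold enrichment of 13.6 in replicate 1 and 11.7 in replicate 2. The region upstream of CSN2, chr4:69983974-69984574, was 18246 bp from its TSS and had values of 43.0 and 45.8, with heights of 186 (160 to 215) and 206 (179 to 236). This was the strongest region of the windows of the caseins in both replicates. It was also the region nearest to CSN1S1, 44798 bp from the internal start of that gene at 69939176. It lay between protein-coding genes and more than 1 kb from any annotated TSS. Its middle 300 bases are shown because they are the strongest open sequence near CSN2 (hg38, chr4:69984125-69984424, forward strand, no match to TTCNNNGAA and so no capitals).
Upstream of CSN2: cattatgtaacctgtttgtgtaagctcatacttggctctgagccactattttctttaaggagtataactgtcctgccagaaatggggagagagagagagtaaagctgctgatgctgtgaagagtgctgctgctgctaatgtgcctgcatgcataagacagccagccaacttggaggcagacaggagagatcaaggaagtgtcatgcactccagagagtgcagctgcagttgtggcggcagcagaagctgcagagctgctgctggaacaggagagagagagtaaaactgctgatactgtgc

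CSN3 (ENSG00000171209.4, chr4:70238382-70251474, forward strand) lies farther along the same cluster. Its window held 2 peaks in replicate 1 and 3 in replicate 2. Of the 2 regions called in both, chr4:70197913-70198240 was at the TSS of ODAM, a gene of enamel formation, with fold enrichments of 15.0 and 12.4. The other, chr4:70280614-70280985, was 38017 bp from the nearest TSS of CSN3 and had values of 10.6 and 14.4. Replicate 2 alone had a peak nearer to CSN3, at 13504 bp, with a height of 22 and a fold enrichment of 5.09. The stretch around the main TSS of CSN3 without a peak of either replicate was 57.9 kb long and also held FDCSP, and 7.81% of genes had one as long.

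LALBA (ENSG00000167531.6, chr12:48567684-48570066, reverse strand) had no TSS peak, but its window was less empty than those of the caseins. It held 7 peaks in each replicate, and all 7 regions were called in both. The nearest, chr12:48566154-48566436, lay downstream of the gene, 3610 bp from its nearest TSS, and 14.2% of genes had their nearest region at least as far away. Its height was 33 in replicate 1 (22.7 to 46.3) and 65 in replicate 2 (50.2 to 82.8). The intervals did not overlap, and its log2 ratio between replicates was 0.90, against the SD of 0.29 over all regions.

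The strongest region near LALBA was chr12:48553637-48554404, downstream of the gene between protein-coding genes, with fold enrichments of 52.5 and 46.2. The strongest one upstream, chr12:48618469-48618892, was at 41.6 and 31.4. From the nearest region to that upstream region there was a stretch of 52.0 kb without a peak of either replicate, which held LALBA and no other protein-coding gene, and 8.68% of genes had one as long.

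BTN1A1 (ENSG00000124557.14, chr6:26500303-26510425, forward strand) stood apart from the other milk protein genes. Its TSS peak spanned chr6:26500137-26500499 in replicate 1, where its fold enrichment was 16.1 at a height of 69 (53.7 to 87.3). In replicate 2 it spanned chr6:26500133-26500542 and reached 22.6 at a height of 101 (82.3 to 123). The mean was 19.3 ± 4.56 (SD, n = 2), and the intervals of the heights overlapped. Among the 15863 genes with a TSS peak in both, this was at percentile 14.3 in replicate 1 and 19.5 in replicate 2, counted from the weakest. The median of the 3639 open genes with few CpGs was 29.7 in replicate 1 and 30.1 in replicate 2, and BTN1A1 was below it in both.

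The window of BTN1A1 was dense in regions but held the main TSSs of 3 protein-coding genes, its own included, which is the median over all such genes. It held 27 peaks in replicate 1 and 28 in replicate 2, and 24 regions were called in both, of which 1 was at its own TSS, 6 at TSSs of other genes and 17 distal, that is, more than 1 kb from any TSS. Inside the gene body the strongest region away from the TSS was the intronic chr6:26505621-26506062, with fold enrichments of 14.3 and 11.3. The strongest regions of the window belonged to neighbours. The TSS region of BTN2A1, a related butyrophilin, had values of 115 and 108, and that of HMGN4, which encodes a nucleosome-binding protein, had 123 and 131. The 5 related genes BTN2A1, BTN2A2, BTN3A1, BTN3A2 and BTN3A3 each had a TSS peak in both replicates (53.9% of all genes with few promoter CpGs, as these are), with medians of 31.3 and 33.4, and BTN1A1 was below these medians.

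PRLR (ENSG00000113494.17, chr5:35048756-35230487, reverse strand) had the most open regions of the 10 genes, in the longest window (282 kb). Of its 11 annotated TSSs, 9 had a peak within 1 kb in both replicates, and 6 lay under a peak in both. The peak at the main TSS had fold enrichments of 58.9 and 52.2, with heights of 255 and 235. A start site within the gene, at position 35130344, had a stronger peak, chr5:35129685-35130571 in replicate 1, with values of 78.5 and 83.1 and heights of 340 (305 to 378) and 375 (338 to 415). The mean of this strongest TSS peak was 80.8 ± 3.31 (SD, n = 2), at percentile 72.5 and 74.2 of the genes with a TSS peak. A further start at 35089637, shared by 5 transcripts, had a peak nearby with 19.3 and 20.8, and the starts at 35118122, also of 5 transcripts, and at 35086338 had none.

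The regions of PRLR were strongest inside the gene. The window held 51 peaks in replicate 1 and 59 in replicate 2, and 47 regions were called in both, of which 10 were at an own TSS, none at a TSS of another gene and 37 distal. The intronic region chr5:35213574-35214794, with its midpoint 16303 bp downstream of the main TSS, had fold enrichments of 121 and 122 and heights of 524 and 551, higher than any TSS peak of PRLR in both replicates. It was at percentile 99.1 of all peaks in replicate 1. Further intronic regions, chr5:35197455-35199283 at 98.0 and 101 and chr5:35187572-35188880 at 83.5 and 96.0, were also stronger than the main TSS. Upstream of the gene, chr5:35246242-35246893 had values of 65.8 and 64.6. The middle 300 bases of the strongest intronic region are shown because they hold a match to TTCNNNGAA, in capitals, in the most accessible part of the receptor gene (hg38, chr5:35214035-35214334, forward strand, against the direction of the gene).
Intron of PRLR: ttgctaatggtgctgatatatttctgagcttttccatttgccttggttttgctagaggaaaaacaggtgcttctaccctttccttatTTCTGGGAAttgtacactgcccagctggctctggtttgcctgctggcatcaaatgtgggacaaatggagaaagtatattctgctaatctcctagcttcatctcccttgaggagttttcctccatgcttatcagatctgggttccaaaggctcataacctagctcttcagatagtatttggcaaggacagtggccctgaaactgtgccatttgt

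**Figure D2:**
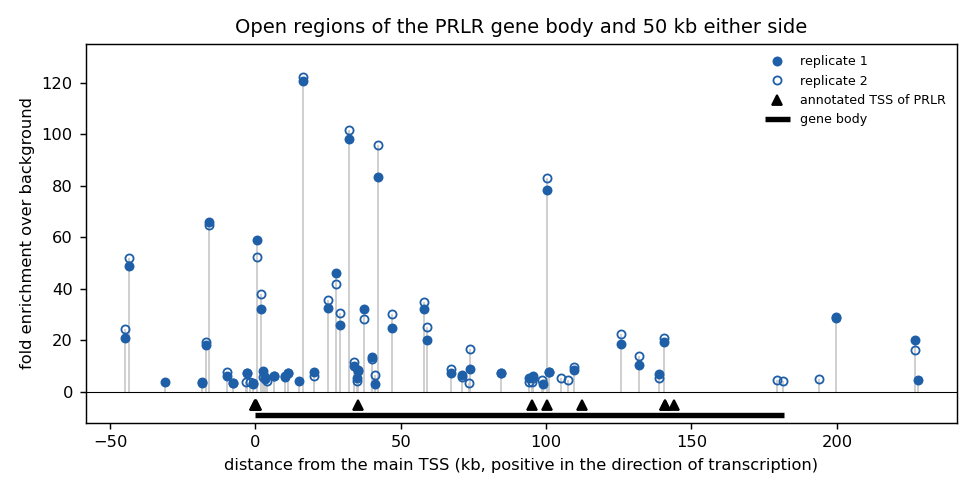
Fold enrichment over background of every region in the PRLR window against the distance of its midpoint from the main TSS (kb, positive in the direction of transcription), for replicate 1 (filled) and replicate 2 (open), with triangles at the annotated TSSs and a bar for the gene body. The strongest point, at 121 and 122, is an intronic region and not a TSS.

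JAK2 (ENSG00000096968.14, chr9:4984390-5129948, forward strand) combined the strongest TSS peak of the 10 genes with a sparse window. Its TSS peak, chr9:4984238-4985831 in replicate 1, had fold enrichments of 128 and 121 and heights of 556 (511 to 604) and 548 (503 to 596). The mean was 125 ± 4.78 (SD, n = 2), at percentile 92.6 and 90.5 of the genes with a TSS peak. The peak covered 3 of the 4 annotated TSSs, and the fourth, near the 3′ end of the gene, had none.

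Around that peak the body of JAK2 was sparse. The window of 246 kb held 9 peaks in replicate 1, 11 in replicate 2 and 8 regions called in both, or 3.26 per 100 kb, at percentile 11.4 of all protein-coding genes. Apart from the TSS, the strongest was chr9:5089682-5090137, with values of 29.0 and 34.5, which lies at MTND6P5, a pseudogene copy of a mitochondrial gene. Whether reads of mitochondrial DNA had been aligned there was not tested.

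STAT5A (ENSG00000126561.18, chr17:42287547-42311943, forward strand) had the weakest TSS peak of the 6 genes with one. Its height was 16 in replicate 1 (9.15 to 26.0) and 21 in replicate 2 (13.0 to 32.1), and its fold enrichment was 3.91 and 4.86, with a mean of 4.39 ± 0.674 (SD, n = 2). This put it at percentile 0.375 and 1.71 of the genes with a TSS peak, although its promoter had a high CpG ratio. The −log10 q-values were 5.39 and 8.79, so that the call was lost, and 3 of the 4 signalling genes had a TSS peak, when a −log10 q of at least 10 was required. The same peak also lay within 1 kb of the start of a STAT5B transcript, since the genes overlap head to head.

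Stronger regions lay farther along STAT5A. The intronic region chr17:42294292-42294857 had fold enrichments of 29.2 and 32.1 and held a match to TTCNNNGAA in its middle 300 bases. The strongest region within 50 kb of STAT5A was chr17:42312153-42312666, just past its 3′ end, with values of 67.2 and 63.0 and a match to the CTCF motif. In the neighbouring STAT3 gene, which encodes another STAT factor, chr17:42322774-42323299 was at 45.8 and 45.6, with a TTCNNNGAA match.

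STAT5B (ENSG00000173757.11, chr17:42199176-42288633, reverse strand) had a stronger TSS peak than STAT5A, at a separate main start. Its fold enrichments were 15.0 and 17.7 and its heights 64 (49.3 to 81.7) and 79 (62.5 to 98.5). These intervals did not overlap with those of STAT5A in either replicate. The mean was 16.3 ± 1.93 (SD, n = 2), at percentile 13.1 and 15.2. Of its 23 annotated TSSs, 19 had a peak within 1 kb in both replicates. Inside the gene, chr17:42222172-42222515 had the highest values of any distal region, 25.5 and 25.4, and the strongest region of the joint window was the TSS of RAB5C, which encodes an endosomal GTPase, at 91.6 and 109.

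By the fold enrichment of the strongest TSS peak, the order of the 6 open genes was JAK2, PRLR, CISH, BTN1A1, STAT5B and STAT5A in both replicates. The Poisson intervals of the heights of BTN1A1 and STAT5B overlapped in both replicates, and those of the other neighbours in this order did not. The place of PRLR above CISH rested on its internal start. At the main TSS PRLR had 58.9 and 52.2 and CISH 58.0 and 53.5, so that their order differed between replicates. The median over PRLR, JAK2, STAT5A and STAT5B was 48.6, but it lay in the gap between STAT5B and PRLR and moved to 35.9 with a single TSS per gene and to 80.8 at a −log10 q of at least 10, so that its place beside the median of all genes with a TSS peak (51.8 and 53.3) depended on these choices.

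CISH (ENSG00000114737.16, chr3:50606489-50611774, reverse strand) had a TSS peak of ordinary strength in the densest of the 10 windows. The peak, chr3:50611068-50612592 in replicate 1, had fold enrichments of 58.0 and 53.5 and heights of 251 (221 to 284) and 241 (212 to 273). The mean was 55.7 ± 3.16 (SD, n = 2), at percentile 56.4 and 50.1. A TSS of MAPKAPK3, which encodes a stress-activated kinase and is transcribed in the other direction, also lies within 1 kb, and the shares of both genes in this peak cannot be told apart.

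The neighbourhood of CISH was open on both sides. Its window held 35 peaks in replicate 1 and 32 in replicate 2, and 30 regions were called in both, 2 at an own TSS, 6 at other TSSs and 22 distal. The strongest was chr3:50604661-50606448, just past the 3′ end of CISH, at 73.4 and 74.5, and chr3:50607111-50608778, which overlaps an exon of the gene, was at 57.8 and 62.6. Both were stronger than the TSS peak in replicate 2.

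**Figure D3:**
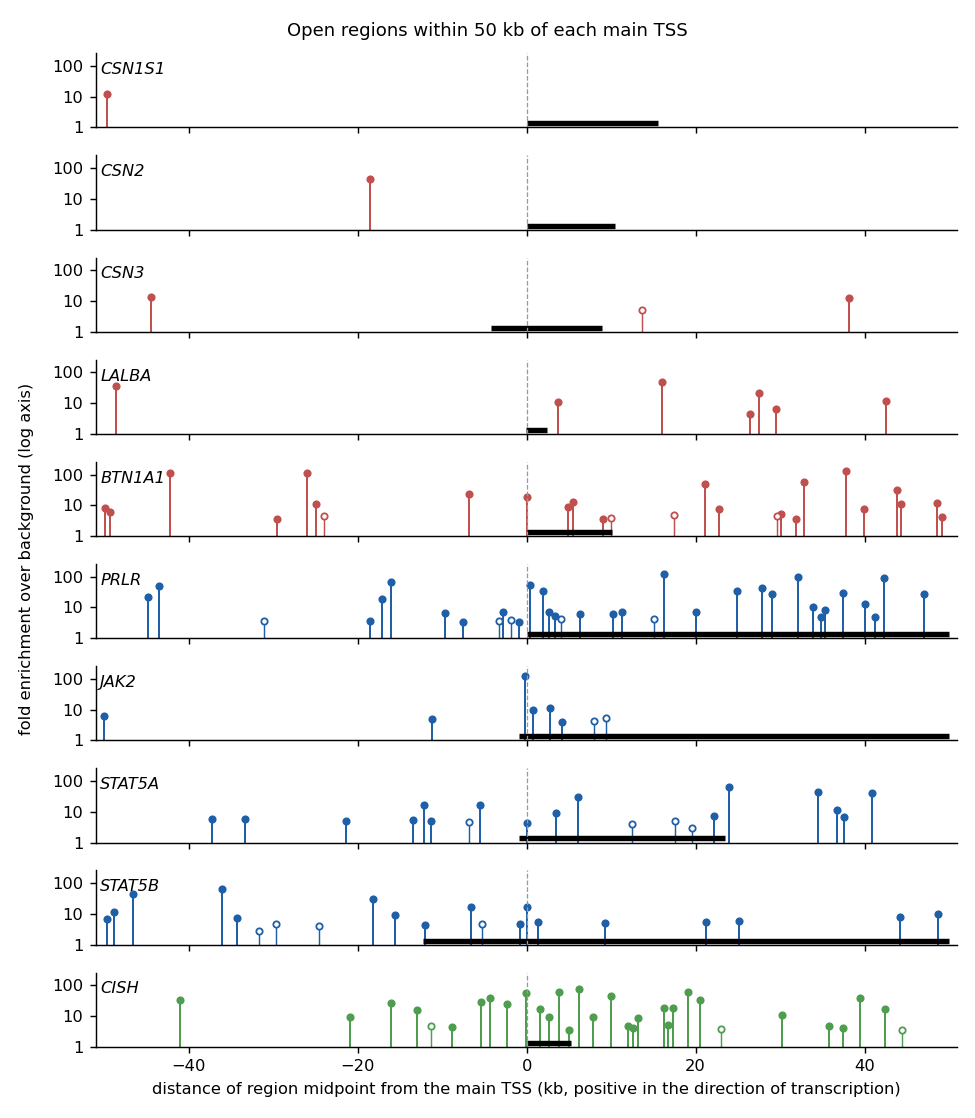
Fold enrichment over background (log axis) of each region against the distance of its midpoint from the main TSS of each gene (kb, positive in the direction of transcription, within 50 kb), as the mean of both replicates for regions called in both (filled) and the value of a single replicate for the others (open), with the gene body as a black bar. The bodies of CSN1S1, CSN2, CSN3 and LALBA hold no region, and the tallest line at a main TSS is that of JAK2, with a mean of 125.

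Counted per length, the windows divided less cleanly than the TSSs. Over all protein-coding genes the median was 11.4 regions called in both replicates per 100 kb of window, with quartiles of 5.95 and 19.5. CSN1S1 had 1.73 (percentile 5.02), CSN2 0.905 (2.68) and CSN3 1.77 (5.14). LALBA had 6.84 (29.5), within the quartiles, and BTN1A1 had 21.8 (80.5), above them. PRLR had 16.7 (67.6), STAT5A 16.1 (65.8) and STAT5B 16.9 (68.3), while JAK2, at 3.26, had fewer than LALBA and BTN1A1. CISH was highest at 28.5 (91.5).

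With overlapping windows merged, the milk protein genes had 7.60 regions per 100 kb and the 4 signalling genes 12.3. With 10 kb instead of 50 kb on either side, the milk protein genes had 4.28. Without BTN1A1 the milk protein genes had 3.14, and the 3 caseins alone 1.61, from 4 regions in 248 kb. Without PRLR the signalling genes had 9.60. The whole genome had 6.97, which was below the value of the milk protein genes with 50 kb on either side and above that with 10 kb. Without TSS regions, the values were 5.65 for the milk protein genes and 8.51 for the signalling genes, against 5.58 for the genome. When PRLR was also left out, the signalling genes had 5.67, close to the milk protein genes and the genome. The surroundings differed too: within 5 Mb of CSN2 there were 421 peaks in replicate 1 and 462 in replicate 2, and within 5 Mb of STAT5B 1882 and 1898. The median fold enrichment of the peaks within 5 Mb was 8.28 to 9.20 over the 10 genes in replicate 1, against 7.96 to 9.07 in replicate 2, and copy number was not analysed here.

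**Figure D4:**
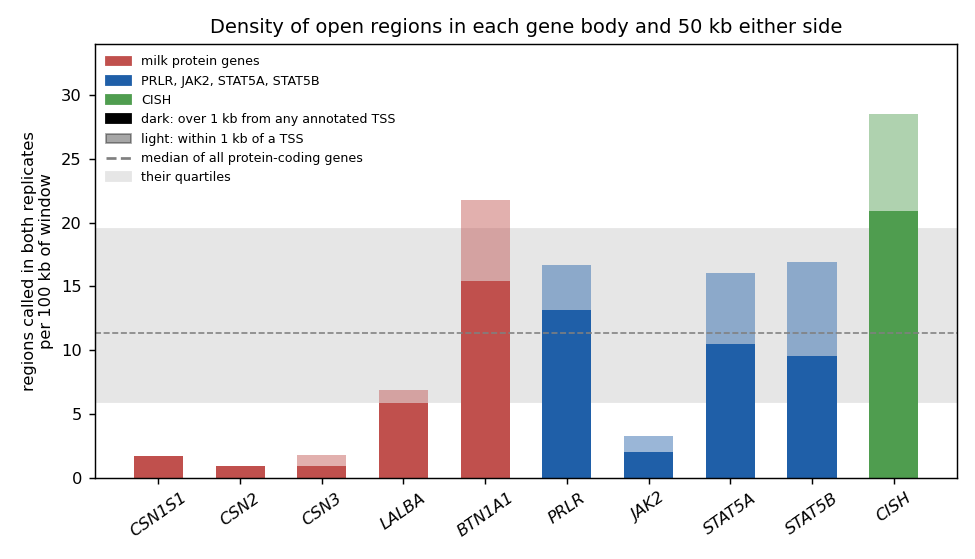
Regions called in both replicates per 100 kb of gene body and 50 kb either side for each gene, with the part more than 1 kb from any annotated TSS in the dark shade, and the median (11.4) and quartiles of all protein-coding genes as a dashed line and a grey band. The 3 caseins and JAK2 fall below the lower quartile of 5.95, and BTN1A1 and CISH rise above the upper one of 19.5.

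In all, the 8 separate loci of the 10 genes held 190 regions, of which 156 (82.1%) were called in both replicates, 14 in replicate 1 alone and 20 in replicate 2 alone. The peaks of a single replicate were low, with heights of at most 24 and a median of 18.5, against a median of 49.0 for regions called in both. Of those 156 regions, 21 were at an own TSS, 24 at TSSs of other genes and 111 distal. The SD of their log2 ratio between replicates was 0.29, the same as over all regions, and the largest difference in either direction was 0.99.

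Motif letters were counted in the 300 bases around the midpoint of each region. TTCNNNGAA was present in 11 of the 156 regions (7.05%) and in 8.43% of all 215195 regions called in both replicates, a difference that was not tested. Of these 11 regions, 3 were among the 47 of PRLR, 3 among the 24 of BTN1A1 and 2 among the 36 of STAT5A and STAT5B. A further 2 were among the 30 of CISH and 1 among the 8 of JAK2. None of the 2 regions near CSN1S1 and CSN2, the 2 near CSN3 or the 7 near LALBA held it, which are too few to read at a share of 8.43%. The GATA letters AGATAA were in 11.5% of the 156 regions against 14.3% of all, the FOX letters TGTTTAC in 7.05% against 7.38%, and the AP-1 letters TGANTCA in 10.3% against 13.5%. The CTCF motif was in 5.13% against 5.64%, and the oestrogen response element was in none, against 0.0902% of all regions. All motifs were searched on both strands, and GATA or FOX letters may overlap other matches in the same region.

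Further genes of the prolactin pathway, listed by function, had a TSS peak in both replicates in 18 of 20 cases, against 79.2% of all protein-coding genes and 92.1% of those with many promoter CpGs, and 5 of the 20 had few. Nothing particular to the list was read from this count. The median fold enrichments were 80.6 and 85.8, against 51.8 and 53.3 over all genes with a TSS peak. The highest values were those of SHC1, an adaptor protein, at 260 and 232, and of CCND1, which encodes cyclin D1 and is a target of the pathway, at 257 and 258. The part of copy number in these values was not tested. PRL, which encodes prolactin itself, and TNFSF11, which encodes the RANK ligand, had no TSS peak, and their nearest regions were 1838 bp and 1720 bp away. Among genes named after their values were seen, ELF5, a transcription factor of milk-secreting cells, had values of 46.7 and 46.2, and SOCS2, a feedback inhibitor of the same family as CISH, had 31.8 and 36.5.

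Other genes of milk constituents and their synthesis had a TSS peak in 14 of 18 cases (77.8%), near the 79.2% of all protein-coding genes, with medians of 34.5 and 39.3. The highest were MUC1, a mucin of the milk fat globule membrane, at 217 and 203, and FASN, the fatty acid synthase, at 89.5 and 114. XDH, also named after its values were seen, is the xanthine oxidoreductase that binds butyrophilin in the milk fat globule and was at 24.2 and 27.4. LTF (lactoferrin), LYZ (lysozyme), LPL (lipoprotein lipase) and SPP1 (osteopontin) had none. Of the 11 genes on this list with few promoter CpGs, 8 had a TSS peak, against 53.9% of all such genes, a difference that was not tested. Of 14 other genes of the casein cluster, among them genes of salivary and enamel proteins, 3 had a TSS peak. These were ENAM at 14.5 and 18.1, ODAM at 15.0 and 12.4 and PRR27 at 11.3 in both replicates. All 14 had few promoter CpGs, for which the share over all genes was 53.9%.

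Marker genes were read as a check of the label. All 8 luminal epithelial markers had a TSS peak in both replicates, with medians of 91.6 and 90.1, and 1 of the 8 had few promoter CpGs. The shares to set beside the marker counts are 79.2% over all protein-coding genes, 92.1% for those with many promoter CpGs and 53.9% for those with few. The 4 basal markers, all with few CpGs, also had TSS peaks, with medians of 8.05 and 7.96. Among blood markers, CD3E, PTPRC and SPI1 had none, and CD14 had one, with values of 47.9 and 52.6. Of the 5 fibroblast and endothelial markers, 4 had one, PECAM1 being without. A TSS peak alone did not separate the luminal list from the fibroblast and endothelial list, whose medians were 62.8 and 64.0, and the part of other cells in these peaks was not tested.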

How the data were processed

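ATAC-seq peaks of CAMA-1 were analysed in 2 biological replicates. The submitters' processing notes name Trim Galore 0.6.5, Bowtie2 2.3.5.1, MACS2 2.2.6 and hg38. The settings of the peak caller, the treatment of duplicate reads and excluded regions are not given in the sources used here. For each peak the authors deposited 4 values, with no pooling of replicates: a fold enrichment, which is a ratio over background, a −log10 p-value, a −log10 q-value, and a score that is 10 times the last, cut to a whole number. Fold enrichments were whole multiples of a step of 0.230 in replicate 1 and 0.221 in replicate 2, which gave the heights and a background of 3.35 and 3.52 stacked reads. Read depth is not in the lists, and a deeper library can pass more peaks.

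Peaks of both replicates were joined by an overlap of at least 1 bp. Genes and TSSs came from GENCODE release 44 on hg38, which fits the chromosome lengths of every peak, and upstream sequences came from RefSeq, in which 10 of 10 genes matched. The main TSS is that of the Ensembl canonical transcript. Values were computed with Python 3.11.15, numpy 2.4.6, pandas 2.3.3, scipy 1.17.1 and pysam 0.24.0, and the functions were tested on simulated data. With a single condition, no test between groups was made.

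The 10 genes and all lists were chosen with earlier results of these data known. The rule for named genes allowed these 10 and genes whose own TSS lies in their windows. From each list of related genes it allowed the strongest 2 and every gene without a TSS peak. Not all of the allowed genes were named. ELF5, SOCS2, XDH, PRR27, BTN3A1 and BTN3A2 were named outside the rule. The alternatives were other TSS distances (100 bp, 3 kb), a single TSS per gene, coding transcripts, other windows (10 kb, 100 kb, gene bodies), distal regions, a −log10 q of at least 10, a reciprocal overlap of 50% and the omission of each replicate. A marker gene on the blood list is not reported here.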

Additional observations from a re-analysis of the deposited data

How the results depend on the processing

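The count of 1 milk protein gene with a TSS peak did not change under 8 alternatives. The 4 signalling genes kept theirs except at a −log10 q of at least 10, which left 3 (STAT5A was lost). The share of all genes with a TSS peak moved from 79.2% to 73.1% (within 100 bp), 84.8% (3 kb), 73.4% (a single TSS), 75.9% (coding transcripts), 76.8% (−log10 q of at least 10), 78.3% (reciprocal overlap) and 80.1 to 80.6% (without a replicate). The milk protein windows moved from 7.60 regions per 100 kb to 4.28 (10 kb, below the 6.97 of the whole genome), 8.02 (100 kb), 5.65 (distal), 6.08 (−log10 q of at least 10) and 8.26 to 8.69 (without a replicate). The signalling windows moved from 12.3 to 13.7 (100 kb), 13.2 (gene bodies), 8.51 (distal), 9.46 (−log10 q of at least 10) and 13.6 to 14.7 (without a replicate), and were denser than the milk protein windows under each alternative run on both. None of these alternatives left out PRLR, without which the distal value was 5.67, close to the 5.65 of the milk protein windows. The median TSS fold enrichment of the signalling genes moved from 48.6 to 62.6 (3 kb), 35.9 (a single TSS, which drops the internal start of PRLR), 80.8 (−log10 q of at least 10, which drops STAT5A) and 46.7 to 50.4 (without a replicate). The median distance from a milk protein gene to its nearest region was 18246 bp and ranged from 13504 to 18246 bp without a replicate. Apart from STAT5A and the peaks dropped by these choices, the cause was not tested. No paired analysis was possible because the study holds 1 condition, with no second group to pair. With 2 replicates, the SDs are themselves uncertain, and a weak TSS peak such as that of STAT5A, or a missing one, is within reach of the depth and the calling threshold.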
